A study of Mus musculus with 3 samples.

Results

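Neuropilins and plexins are the cell surface receptors for semaphorins, and the 10 genes described here are Nrp1, Nrp2, Plxna1, Plxna2, Plxna3, Plxna4, Plxnb1, Plxnb2, Plxnc1 and Plxnd1. They were taken by symbol from the 32285 genes of the count tables, and all 10 were present. Droplet-based single-nucleus RNA sequencing had been run on 3 libraries, labelled as biological replicates 1, 2 and 3 of a single group, uninjured C57BL/6 mice. The nuclei came from brain neurons that had taken up a label from the lumbar spinal cord, so the dissection and sort aimed at neurons with a descending axon. The sources used here do not give the number of animals per library, their age and sex, or the tracer.

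Semaphorins are secreted or membrane-bound guidance proteins that steer growing axons and later shape synapses. Most class 3 semaphorins are secreted and bind a neuropilin, which holds them to a plexin A. Nrp1 is the usual binding partner of Sema3a and Nrp2 that of Sema3f, and the plexin, not the neuropilin, passes the signal into the cell through its GTPase-activating domain. Other plexins bind their ligands without a neuropilin: plexin B proteins bind class 4 semaphorins, plexin C1 binds Sema7a and plexin D1 binds Sema3e. In mice, Sema3a and Nrp1 act on growing cortical axons, and plexin A3 and A4 take part in the pruning of corticospinal collaterals.

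A total of 9027 nuclei had 1000 or more genes detected and no more than 5% of their UMIs (unique molecular identifiers, counted molecules) from mitochondrial genes. They were assigned to types by the CPM (UMIs scaled to a fixed total per nucleus or sum) of gate genes, each gate needing at least 2 UMIs and being tried in a set order. Nuclei with at least 300 CPM of Tox were called cortical, and of the rest those with at least 150 CPM of Ttc6, Chst9 and Rreb1 together were called red nucleus. Hypothalamic nuclei had at least 150 CPM of Sim1, or of Ros1 and Rfx2 together, and hindbrain nuclei at least 200 CPM of Meis1 and Meis2 together. The types held 4126 cortical, 332 red nucleus, 149 hypothalamic and 2782 hindbrain nuclei, and 1638 nuclei passed no gate. The order of the gates mattered for the largest type, since 1677 of the 4126 cortical nuclei also passed the hindbrain gate.

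The libraries held between 27435221 and 74287112 UMIs, and the 12 sums of a type in a library between 367083 and 45768766. The markers Bcl11b, Hcrt, Pou4f1 and Lhx4 were each highest in the type they stand for. Bcl11b, a factor of subcerebral projection neurons, reached 262.5 ± 19.6 CPM in cortical nuclei (SD, n = 3 libraries), and Hcrt, which encodes orexin, 785 ± 210.1 CPM in hypothalamic nuclei. Pou4f1 stood at 17.1 ± 7.97 CPM in red nucleus nuclei and Lhx4, a marker of brainstem neurons, at 23.95 ± 3.17 CPM in hindbrain nuclei. Slc17a6, used below among the hindbrain markers, was higher in red nucleus nuclei, at 112 ± 13.2 CPM against 94.1 ± 13.2 CPM in hindbrain nuclei. Hcrt was also present elsewhere, at about the same level in every other type of a library: 70.6, 65.6 and 61.8 CPM in cortical, red nucleus and hindbrain nuclei of replicate 1, 105.6, 123.5 and 106.1 CPM in replicate 2, and 34.0, 38.6 and 32.4 CPM in replicate 3. A transcript high in 1 type was thus counted in nuclei of the others, and how it came to be there was not tested. Low levels below are given beside markers of the type in which the gene was high. Markers of other cell types were also counted. The 5 endothelial markers summed to 52.9 to 82.3 CPM in cortical, 42.5 to 64.7 CPM in red nucleus, 48.4 to 56.8 CPM in hypothalamic and 51.3 to 62.1 CPM in hindbrain nuclei, most of it Tek, while the defining gene Cldn5 averaged 0.0585 CPM in cortical and 0.0447 CPM in hindbrain nuclei and was at 0 in the other types. The 4 microglial markers summed to 26.1 to 46.9 CPM in cortical, 64.8 to 89.0 CPM in red nucleus, 46.9 to 67.6 CPM in hypothalamic and 52.9 to 80.8 CPM in hindbrain nuclei, mostly P2ry12, with C1qa at 0 in hypothalamic nuclei. The 4 astrocyte markers summed to 12.4 to 15.4, 19.0 to 33.2, 6.92 to 26.1 and 24.5 to 25.9 CPM in cortical, red nucleus, hypothalamic and hindbrain nuclei, with Gja1 at 0 in red nucleus and hypothalamic nuclei and Slc1a3 at 0 in hypothalamic nuclei. The oligodendrocyte gene Mbp stood at 72.2 ± 10.1 CPM in cortical nuclei, against 14.6 to 26.5 CPM on average in the other types. The part of these cells in the results was not tested. Between 1 and 3 barcodes of the nuclei within the limits were shared by any pair of libraries.

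Types were compared on UMIs summed per library, with edgeR's quasi-likelihood test over 16185 genes and the library as a block. Calls needed a Benjamini-Hochberg adjusted p below 0.05, over all of these genes, and a log2 fold change of 1 or more in either direction. All log2 fold changes below are first-named minus second-named type, with a standard error (SE), and CPM levels are on the same TMM scale (a scaling by the trimmed mean of ratios between sums). Nothing in the labels says how many animals the libraries stand for, so the p-values measure only the spread between these libraries, which may in part be technical. Of the 10 genes, 8 passed the filter on low counts; Plxnb1 and Plxnd1 did not. In cortical minus red nucleus nuclei 2 of the 10 were called higher (Nrp1, Plxna2), where 8.49% of all tested genes were, and 2 lower (Nrp2, Plxna3), where 13.3% were; either way it was 21.8%. In cortical minus hypothalamic nuclei the same 4 genes were called in the same directions, with 10.3% of all genes higher, 11.7% lower and 22% either way. In cortical minus hindbrain nuclei Nrp1 and Plxna2 were higher and Nrp2, Plxna3 and Plxnb2 lower, with 8.41% of all genes higher, 13% lower and 21.4% either way. These 3 contrasts share the cortical sums. Fewer were called outside the cortex. Red nucleus nuclei were lower than hypothalamic nuclei for Plxna3 and Plxnc1 (3.57% of all genes were higher, 3.24% lower and 6.81% either way) and lower than hindbrain nuclei for Nrp1 and Plxna3 (2.3% higher, 1.88% lower, 4.18% either way). Hypothalamic nuclei were lower than hindbrain nuclei for Nrp2 (2.13% higher, 2.03% lower, 4.16% either way).

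The scaling bears on how many genes of all kinds were higher or lower. With TMM, cortical minus red nucleus gave 1374 genes higher and 2147 lower, cortical minus hypothalamic 1668 and 1893, and cortical minus hindbrain 1361 and 2099. With scaling by library size only, chosen after seeing the data, these splits were 857 and 3390, 809 and 3726, and 815 and 3742, and the median log2 fold change of all genes was -0.40, -0.52 and -0.47, against -0.05, 0.01 and -0.05 with TMM. Red nucleus minus hypothalamic went the same way, with 404 higher and 739 lower under library size and 578 and 524 under TMM, and hypothalamic minus hindbrain gave 417 and 249 under library size and 345 and 329 under TMM. No called member changed its direction. The small uncalled differences of Plxnc1 (cortical minus red nucleus), Plxna4 (cortical minus hypothalamic and minus hindbrain) and Plxna1 (cortical minus hindbrain) did.

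**Figure D1:**
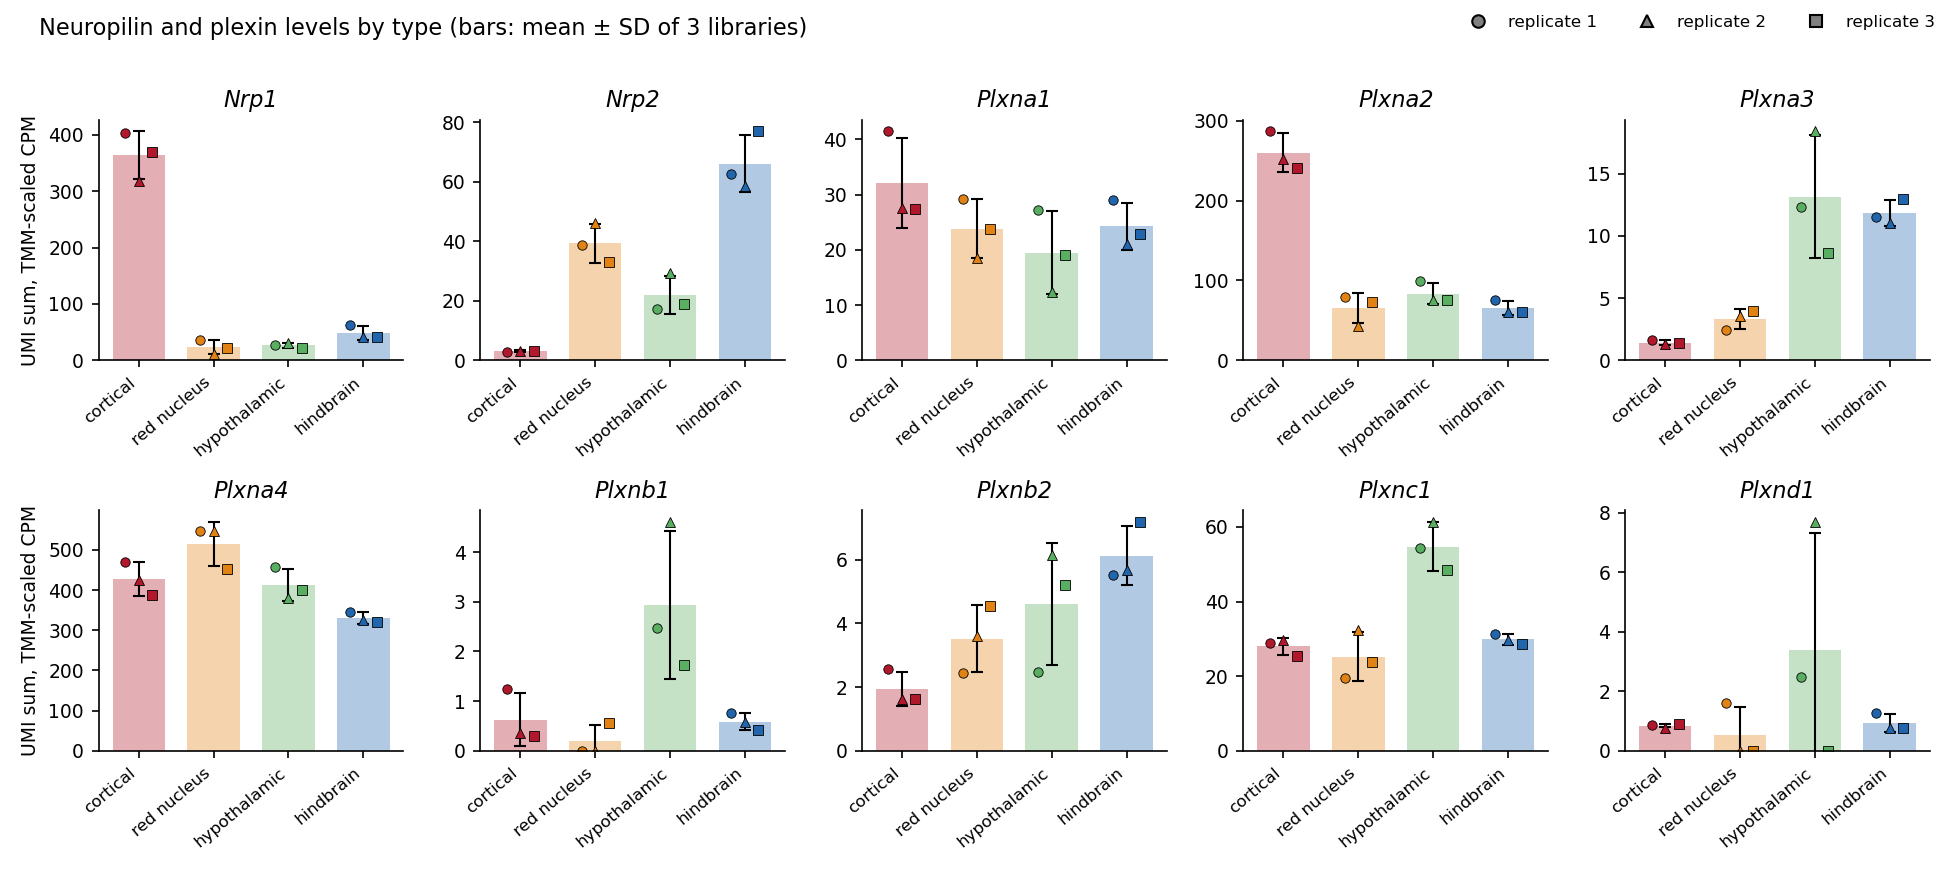
TMM-scaled CPM of the 10 genes (vertical axes, linear, each with its own scale) in the sums of the 4 types; bars and error bars are the mean ± SD of 3 libraries and symbols are the libraries. Nrp1 and Plxna2 stand high in cortical nuclei, Nrp2 in hindbrain nuclei at 66.1 ± 9.67 CPM and Plxnc1 in hypothalamic nuclei at 54.7 ± 6.52 CPM, while Plxna4 is high in every type.

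The sequences around the annotated starts of 4 of these genes are shown because Nrp1 and Plxna2 were called higher, and Nrp2 and Plxna3 lower, in cortical nuclei against every other type. Promoter sequences of 300 bases, from 250 before to 50 after the start, were taken from RefSeq (GRCm38.p6), and all 4 lie on the plus strand: Nrp1 at chr8:128358823-128359122, Plxna2 at chr1:194619579-194619878, Nrp2 at chr1:62703067-62703366 and Plxna3 at chrX:74328816-74329115. Capitals mark the GC box, GGGCGG or its reverse complement CCGCCC, where neighbouring matches can join or overlap.
Nrp1: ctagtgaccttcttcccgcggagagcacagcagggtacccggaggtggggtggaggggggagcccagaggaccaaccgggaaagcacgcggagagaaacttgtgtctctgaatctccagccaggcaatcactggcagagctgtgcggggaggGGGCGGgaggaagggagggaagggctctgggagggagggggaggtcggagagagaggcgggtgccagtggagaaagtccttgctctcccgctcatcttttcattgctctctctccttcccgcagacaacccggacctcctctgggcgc
Plxna2: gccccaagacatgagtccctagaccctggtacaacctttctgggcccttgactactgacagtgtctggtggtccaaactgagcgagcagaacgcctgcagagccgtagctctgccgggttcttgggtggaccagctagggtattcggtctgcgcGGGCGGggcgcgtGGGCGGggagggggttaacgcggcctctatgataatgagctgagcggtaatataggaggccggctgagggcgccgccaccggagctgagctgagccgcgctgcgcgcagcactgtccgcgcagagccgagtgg
Nrp2: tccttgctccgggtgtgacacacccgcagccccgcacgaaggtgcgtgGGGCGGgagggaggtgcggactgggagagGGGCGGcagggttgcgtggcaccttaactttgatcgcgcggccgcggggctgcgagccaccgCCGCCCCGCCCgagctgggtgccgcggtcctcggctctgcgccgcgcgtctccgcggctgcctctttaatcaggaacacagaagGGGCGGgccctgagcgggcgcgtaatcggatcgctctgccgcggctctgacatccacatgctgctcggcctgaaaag
Plxna3: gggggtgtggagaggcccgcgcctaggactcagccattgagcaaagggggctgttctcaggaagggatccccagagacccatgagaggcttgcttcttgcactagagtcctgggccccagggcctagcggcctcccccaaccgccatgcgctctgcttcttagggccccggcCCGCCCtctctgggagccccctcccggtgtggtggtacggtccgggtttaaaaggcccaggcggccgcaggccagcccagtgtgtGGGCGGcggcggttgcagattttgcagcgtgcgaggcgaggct
The GC box occurred 1 time in the Nrp1 window, 2 times in that of Plxna2, 5 times in that of Nrp2 and 2 times in that of Plxna3, and 35.7% of 32851 RefSeq promoter windows of the same length hold at least 1. On either strand, none of the 4 windows held TATAAA, which 13.6% of windows hold, nor TTGGC, the core of nuclear factor I sites, which 46.7% hold, nor CCAAT, which 37.4% hold. The letters TTGGC and CCAAT overlap where the reverse complement GCCAA is followed by T. The GC content of the windows lay between 64.0% and 70.7%. These matches are a description of the letters and were not tested for any link with expression.

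In the mm10 annotation (GENCODE vM21), Nrp1 spans chromosome 8 from 128358604 to 128503363 and Nrp2 chromosome 1 from 62703285 to 62818695, both on the plus strand. Plxna2 lies on chromosome 1 (194618218 to 194816869), Plxna3 on chromosome X (74329066 to 74344689), and Plxna4, Plxna1 and Plxnd1 all on chromosome 6 (32144268 to 32588192, 89316314 to 89362620 and 115954811 to 115995005). Plxnb1 is on chromosome 9 (109095389 to 109119917), Plxnb2 on chromosome 15 (89155549 to 89180788) and Plxnc1 on chromosome 10 (94790866 to 94944835). In this annotation Nrp1 and Plxna2 start upstream of their printed promoter windows, which follow RefSeq starts. The motif matches of these genes hold for the RefSeq starts only. Counts were summed over whole genes, so no exon or isoform is told apart. Nrp2, Plxna1, Plxna4 and Plxnb1 each overlap an annotated gene on the opposite strand, and whether the counting used strand is not given in the sources used here. UMI counts are not corrected for transcript length, so levels are compared between types for 1 gene at a time.

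Nrp1, which encodes the co-receptor of Sema3a and of some vascular endothelial growth factors, was the neuropilin of cortical nuclei. Its level was 404, 319 and 369.9 CPM in cortical nuclei of replicates 1, 2 and 3, a mean of 364 ± 42.8 CPM (SD, n = 3). Red nucleus nuclei had 35.6, 10.8 and 22.1 CPM, hypothalamic nuclei 27.2, 30.7 and 22.5 CPM, and hindbrain nuclei 62.0, 41.2 and 41.1 CPM. Every cortical library lay above every library of the other types. By edgeR's quasi-likelihood test, the log2 fold change was 4.08 against red nucleus nuclei (SE 0.16, adjusted p = 1.2e-12), 3.73 against hypothalamic nuclei (SE 0.21, adjusted p = 1.7e-10) and 2.95 against hindbrain nuclei (SE 0.11, adjusted p = 5.0e-13), with all 3 libraries higher each time.

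The Nrp1 counted outside cortical nuclei lay at about the level of cortical transcripts counted there. Nrp1 in a type stood at 6.06% ± 2.73 of its cortical level in red nucleus nuclei, 7.48% ± 1.90 in hypothalamic nuclei and 13.1% ± 2.12 in hindbrain nuclei (SD, n = 3). The 5 cortical markers Nfib, Bcl11b, Fezf2, Crym and Slc17a7 spanned 4.20% to 12.9% of their cortical level in red nucleus nuclei, 4.61% to 15.8% in hypothalamic nuclei and 8.86% to 21.2% in hindbrain nuclei. Nrp1 fell inside that span in all 3 types, and how much of it these nuclei made themselves was not tested. The cortical markers summed to 1657 to 1696 CPM in cortical nuclei, 99.9 to 118 CPM in red nucleus nuclei, 58.8 to 149 CPM in hypothalamic nuclei and 122 to 222 CPM in hindbrain nuclei.

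Nrp1 was called lower in red nucleus than in hindbrain nuclei, with a log2 fold change of -1.14 (edgeR, SE 0.19, adjusted p = 0.00061). The summed cortical markers were also lower in red nucleus than in hindbrain nuclei in each library, though Bcl11b alone was higher in red nucleus nuclei in replicates 1 and 3 and Crym in replicate 3. The log2 fold change was -0.86 without replicate 2, and -0.86 after thinning every nucleus to 5000 UMIs, both under the size needed. Hypothalamic nuclei did not pass against hindbrain nuclei (log2 fold change -0.78, edgeR adjusted p = 0.095), nor red nucleus against hypothalamic nuclei (-0.36, edgeR adjusted p = 0.59). The nuclei that passed no gate had 107 ± 7.30 CPM of Nrp1 and 47.6% ± 1.58 of them had an Nfib UMI after thinning.

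**Figure D2:**
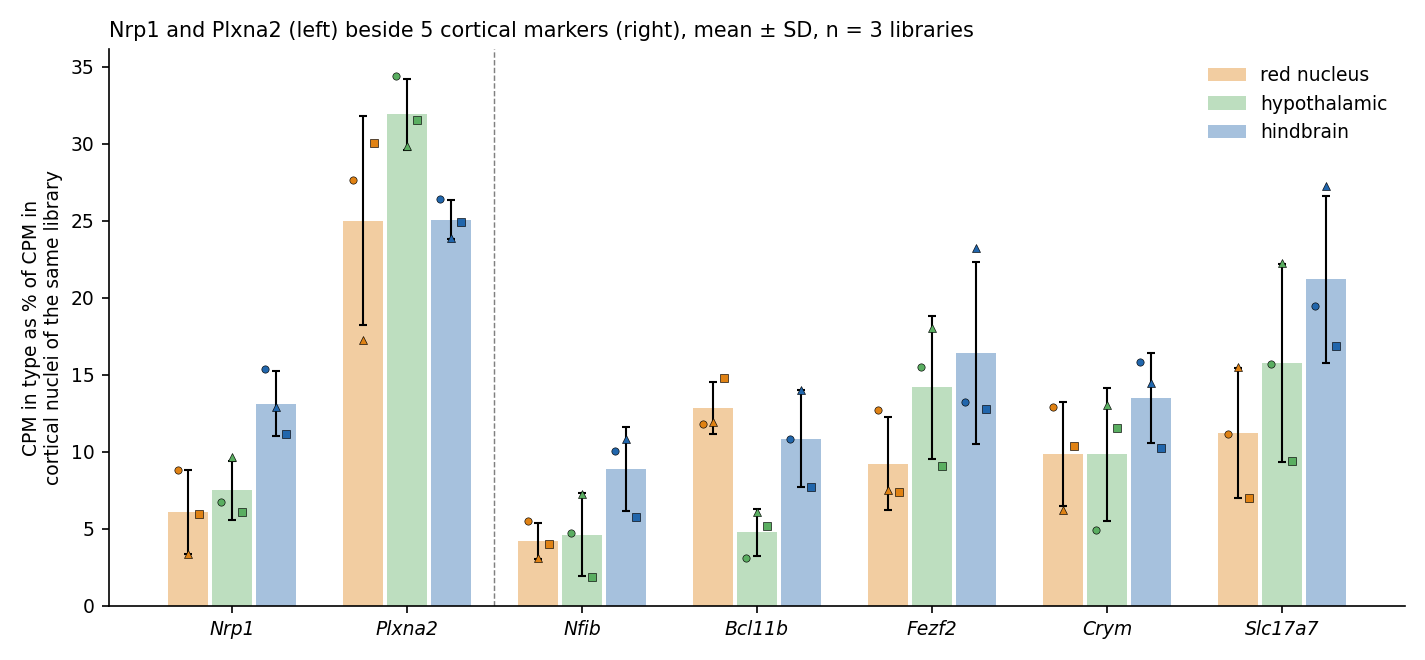
Level of Nrp1, Plxna2 and 5 cortical markers in red nucleus, hypothalamic and hindbrain nuclei as a percent of the level in cortical nuclei of the same library (vertical axis); bars and error bars are the mean ± SD of 3 libraries and symbols are the libraries. The Nrp1 bars lie among those of the markers, while the Plxna2 bars, between 25.0% and 31.9%, lie above all of them.

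Nrp2, the neuropilin that binds Sema3f, was lowest in cortical nuclei and, like Nrp1 among the types outside the cortex, highest in hindbrain nuclei. It stood at 2.94, 3.28 and 3.17 CPM in cortical nuclei, 38.9, 46.1 and 32.9 CPM in red nucleus nuclei, 17.3, 29.2 and 19.0 CPM in hypothalamic nuclei and 62.7, 58.6 and 77.0 CPM in hindbrain nuclei. The libraries of the 4 types did not overlap. Cortical nuclei were lower with a log2 fold change of -4.39 against hindbrain (SE 0.14, adjusted p = 5.2e-14), -3.64 against red nucleus (SE 0.19, adjusted p = 3.4e-11) and -2.83 against hypothalamic nuclei (SE 0.35, adjusted p = 3.8e-06), all by edgeR. Hypothalamic nuclei were in turn below hindbrain nuclei (-1.55, SE 0.24, edgeR adjusted p = 0.00025). Red nucleus nuclei stood between these without a call, at -0.74 against hindbrain nuclei (edgeR adjusted p = 0.0022, under the size needed; called at -1.02 with nuclei of 1 gate only and at -1.002 after thinning to 5000 UMIs) and 0.81 against hypothalamic nuclei (edgeR adjusted p = 0.067).

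The cortical level of Nrp2 was 4.80% ± 0.745 of the hindbrain level, no higher than the 5.34% to 21.5% spanned there by the hindbrain markers Lhx4, Slc17a6, Hoxb3 and Hoxc4. At an equal depth of 5000 UMIs a nucleus, 1.16% ± 0.235 of cortical nuclei had an Nrp2 UMI and 3.83% ± 1.09 had one of Slc17a6, the vesicular glutamate transporter of brainstem neurons. The cortical level was 2.24 CPM when nuclei that pass more than 1 gate were left out and 2.44 CPM without called doublets. In red nucleus and hypothalamic nuclei Nrp2 was at 61.1% ± 18 and 34.0% ± 13.7 of the hindbrain level, where the hindbrain markers other than Slc17a6 spanned 9.07% to 32.4% and 6.99% to 24.3% and Slc17a6 itself stood at 119.8% and 95.4%.

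The balance of both neuropilins separated cortical nuclei from the rest. The log2 ratio of Nrp1 to Nrp2 UMIs was 7.10, 6.60 and 6.87 in the cortical sums of replicates 1, 2 and 3. It was -0.13, -2.10 and -0.57 in red nucleus, 0.65, 0.07 and 0.24 in hypothalamic and -0.02, -0.51 and -0.91 in hindbrain sums. Every cortical library lay above every library of the other types. The difference was 7.79 against red nucleus, 6.53 against hypothalamic and 7.33 against hindbrain nuclei on the log2 scale. In an exact two-sided permutation test of 3 against 3 libraries each of these gave p = 0.1, the smallest such a test allows, and 0.12 after adjustment over 6 pairs of types. Red nucleus against hypothalamic nuclei (difference -1.255) and hypothalamic against hindbrain nuclei (0.8) gave the same exact permutation p = 0.1, and 0.12 after adjustment. The test thus does not set cortical nuclei apart from these pairs, and it did not pair types by library. The red nucleus and hindbrain ratios overlapped (exact permutation p = 0.6).

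Per nucleus, thinned to 5000 UMIs, 68.2% ± 3.67 of cortical nuclei had an Nrp1 UMI, against 10.1% ± 6.84 of red nucleus, 10.4% ± 6.23 of hypothalamic and 17.0% ± 2.08 of hindbrain nuclei (SD, n = 3). Without thinning the shares were 90.5%, 22.6%, 20.8% and 28.7%. An Nrp2 UMI was found in 14.3% ± 4.85 of red nucleus, 7.18% ± 4.91 of hypothalamic and 26.4% ± 1.31 of hindbrain thinned nuclei, and without thinning in 31.9%, 15.4% and 45.1%, against 4.34% of cortical nuclei. Nuclei with at least 5000 UMIs, which could be thinned, numbered 3958 cortical, 307 red nucleus, 126 hypothalamic and 2470 hindbrain nuclei.

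**Figure D3:**
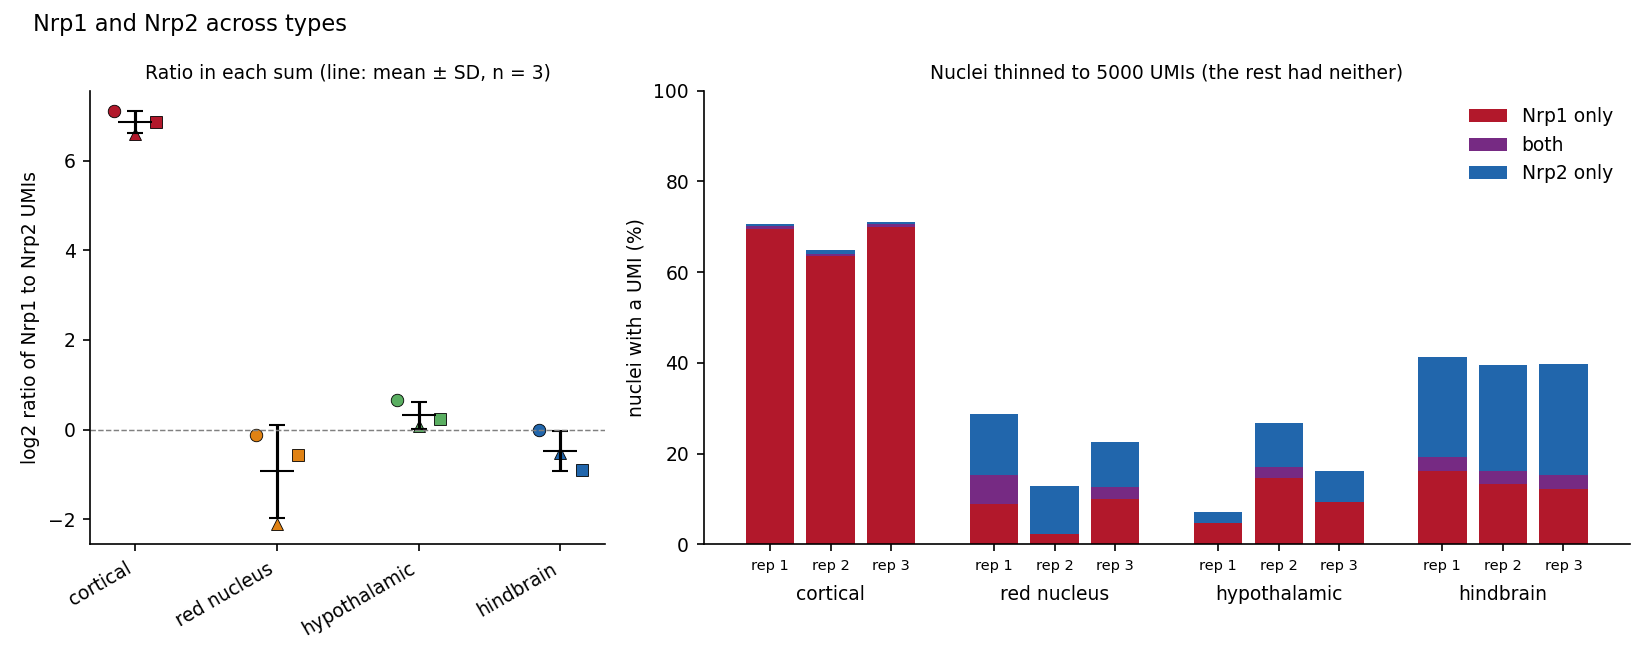
Left, log2 ratio of Nrp1 to Nrp2 UMIs in the sums of each type; symbols are libraries, lines the mean ± SD of 3. Right, percent of nuclei thinned to 5000 UMIs that had a UMI of Nrp1 only, of both or of Nrp2 only, by type and library; between 63.5% and 70.0% of cortical nuclei had Nrp1 only and 21.9% to 24.4% of hindbrain nuclei had Nrp2 only.

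Plxna2 and Plxna4 were the plexin A genes with the most UMIs in every type, though only Plxna2 differed between cortical and other nuclei by the size needed. Plxna2, a receptor for class 3 semaphorins with a neuropilin and for Sema6a without one, stood at 287, 252 and 241 CPM in cortical nuclei. It had 79.4, 43.6 and 72.6 CPM in red nucleus, 98.8, 75.3 and 76.1 CPM in hypothalamic and 75.8, 60.3 and 60.1 CPM in hindbrain nuclei. Cortical nuclei were higher in every library, with a log2 fold change of 2.02 against red nucleus (SE 0.12, adjusted p = 1.3e-10), 1.65 against hypothalamic (SE 0.14, adjusted p = 5.3e-08) and 2.00 against hindbrain nuclei (SE 0.09, adjusted p = 5.1e-12), by edgeR. The other types held 25.0% ± 6.79, 31.9% ± 2.31 and 25.1% ± 1.25 of the cortical level, above all 5 cortical markers on average, and did not pass against each other. A Plxna2 UMI was found in 60.5% ± 3.13 of thinned cortical nuclei, against 25.2% ± 2.48, 30.9% ± 6.88 and 27.0% ± 1.72 of red nucleus, hypothalamic and hindbrain nuclei.

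Plxna4, a partner of Nrp1 in the mouse response to Sema3a, was broadly high. It stood at 470.3, 426 and 387 CPM in cortical, 547.5, 547.2 and 452 CPM in red nucleus, 457, 381 and 399 CPM in hypothalamic and 346.5, 324 and 320.1 CPM in hindbrain nuclei. Red nucleus nuclei were highest on average and hindbrain nuclei lowest. No pair of types reached the size needed for a call, the largest difference being 0.64 on the log2 scale for red nucleus minus hindbrain (SE 0.07, edgeR adjusted p = 1.2e-05). Cortical minus red nucleus was -0.27 (edgeR adjusted p = 0.0061) with overlapping libraries, and cortical minus hypothalamic 0.05 (edgeR adjusted p = 0.65). After thinning, 76.6% ± 3.25 of cortical, 86.0% ± 3.02 of red nucleus, 81.7% ± 5.53 of hypothalamic and 77.2% ± 2.45 of hindbrain nuclei had a Plxna4 UMI.

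Because Plxna4 varied little while Plxna2 did not, the balance of these plexins also shifted with type. The log2 ratio of Plxna2 to Plxna4 UMIs was -0.72 ± 0.04 in cortical sums, -3.03 ± 0.55 in red nucleus, -2.31 ± 0.09 in hypothalamic and -2.34 ± 0.13 in hindbrain sums (SD, n = 3). The cortical libraries did not overlap with those of any other type.

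Plxna1, another receptor for class 3 semaphorins, was lower and similar across types, at 41.5, 27.5 and 27.4 CPM in cortical, 29.2, 18.5 and 23.8 CPM in red nucleus, 27.2, 12.3 and 19.0 CPM in hypothalamic and 29.1, 21.0 and 22.8 CPM in hindbrain nuclei. Replicate 1 was the highest library in each type. The largest difference, cortical minus hypothalamic, was 0.75 on the log2 scale (SE 0.22, edgeR adjusted p = 0.012), under the size needed.

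Plxna3, which in the mouse acts with Nrp2 in the response to Sema3f, was the plexin A with the fewest UMIs and the largest relative difference between types. It stood at 1.61, 1.29 and 1.38 CPM in cortical and 2.43, 3.59 and 3.97 CPM in red nucleus nuclei. Hypothalamic nuclei had 12.3, 18.4 and 8.65 CPM and hindbrain nuclei 11.5, 11 and 13 CPM. Cortical nuclei were lower with a log2 fold change of -3.26 against hypothalamic (SE 0.41, adjusted p = 5.2e-06) and -3.08 against hindbrain nuclei (SE 0.22, adjusted p = 1.8e-09), by edgeR. Red nucleus nuclei were also lower, at -1.97 against hypothalamic (SE 0.45, adjusted p = 0.0065) and -1.79 against hindbrain nuclei (SE 0.32, adjusted p = 0.0011). Hypothalamic and hindbrain nuclei overlapped (log2 fold change 0.18, edgeR adjusted p = 0.84).

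The low end of Plxna3 rested on few counts. The red nucleus sums held 17 UMIs of it and the hypothalamic sums 22, against 447 in the hindbrain sums. The call of cortical below red nucleus nuclei (-1.30, edgeR adjusted p = 0.014) was lost without replicate 2 (-1.16), without replicate 3 (-1.14) and with nuclei of more than 1 gate left out (-0.89). That of red nucleus below hypothalamic nuclei was lost without replicate 1 (-1.85, edgeR adjusted p = 0.056), without replicate 2 (-1.61) and after thinning (-1.45). Thinning also ended the call of red nucleus below hindbrain nuclei (-1.48, edgeR adjusted p = 0.067). Cortical and red nucleus nuclei held 12.1% ± 1.74 and 28.1% ± 6.13 of the hindbrain level of Plxna3. Leaving out Slc17a6, which stood at 119.8% ± 14.95 of its hindbrain level in red nucleus nuclei, the hindbrain markers spanned 5.34% to 21.5% of theirs in cortical and 9.07% to 32.4% in red nucleus nuclei, and Plxna3 lay inside that span in both types.

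Plxnb1 and Plxnd1 were near the detection limit in every type. Plxnb1, a receptor for Sema4d, had 35, 1, 5 and 21 UMIs in all cortical, red nucleus, hypothalamic and hindbrain sums together. Plxnd1, the receptor of Sema3e, had 66, 2, 6 and 33 UMIs. The totals are not scaled for depth. They were largest in the deep cortical and hindbrain sums, but lower in red nucleus sums than in the shallower hypothalamic sums. In the same order, mean levels were 0.624, 0.189, 2.94 and 0.589 CPM for Plxnb1. For Plxnd1 they were 0.843, 0.540, 3.38 and 0.940 CPM. Both means were thus highest in hypothalamic nuclei, where they rested on 5 and 6 UMIs. Neither passed the filter, and without the filter no pair of types was called for them. The nuclei that passed no gate held 42 UMIs of Plxnb1 and 22 of Plxnd1.

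Plxnb2, a receptor for class 4 semaphorins best known from cerebellar and cortical precursor cells in the mouse, was low, at 2.56, 1.64 and 1.63 CPM in cortical and 2.43, 3.59 and 4.54 CPM in red nucleus nuclei. It had 2.47, 6.14 and 5.19 CPM in hypothalamic and 5.51, 5.67 and 7.19 CPM in hindbrain nuclei. Cortical nuclei were below hindbrain nuclei (log2 fold change -1.72, SE 0.26, edgeR adjusted p = 2.3e-05), with no overlap between libraries. No other pair of types passed. With other settings cortical minus hypothalamic passed with the DESeq2 test (-1.43), nuclei of 1 gate only (-1.87), gates at 1.5 times (-1.68) and library size only (-1.93), and cortical minus red nucleus passed without replicate 1 (-1.25), with nuclei of 1 gate only (-1.25) and with library size only (-1.31).

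Plxnc1, the receptor of Sema7a, was highest in hypothalamic nuclei. The level was 29.0, 29.6 and 25.4 CPM in cortical, 19.4, 32.3 and 23.8 CPM in red nucleus, 54.3, 61.4 and 48.4 CPM in hypothalamic and 31.2, 29.8 and 28.5 CPM in hindbrain nuclei. Every hypothalamic library lay above every library of the other types. Red nucleus nuclei were called lower than hypothalamic nuclei (log2 fold change -1.09, SE 0.20, edgeR adjusted p = 0.0010). The value moved to -0.95 without replicate 1 and -0.99 with gates at 1.5 times, under the size needed. Cortical minus hypothalamic (-0.97, edgeR adjusted p = 0.00020) and hypothalamic minus hindbrain (0.88, edgeR adjusted p = 0.0025) lay just under it. Cortical minus hypothalamic passed with DESeq2 size factors (-1.02), the DESeq2 test (-1.02), nuclei of 1 gate only (-1.10), thinning (-1.22) and library size only (-1.51), and hypothalamic minus hindbrain passed after thinning (1.09) and with library size only (1.00).

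The hypothalamic type joins 2 gates, and Plxnc1 differed between them. Nuclei admitted by Sim1, a factor of the paraventricular nucleus, had 77.9, 92.4 and 64.1 CPM, against 22.7, 24.9 and 10.8 CPM in those admitted by Ros1 and Rfx2. Hcrt stood at 62.4 ± 31.9 CPM in the Sim1-gate nuclei, about as in the other types, and at 1799 ± 358.5 CPM in the Ros1 and Rfx2 gate nuclei. There were 92 Sim1-gate and 56 Ros1 and Rfx2 gate nuclei, and 1 nucleus that passed both gates was left out. In a fit of 5 groups the log2 fold change of the Sim1 gate minus the Ros1 and Rfx2 gate was 1.95 (SE 0.35, edgeR adjusted p = 0.00082), where 2.31% of 13522 tested genes were called higher, 1.72% lower and 4.04% either way. Of the 10 genes 8 were tested and Plxnc1 alone was called. After thinning to 5000 UMIs the value was 1.47 and no longer called. A Plxnc1 UMI was found in 35.4% ± 6.38 of thinned Sim1-gate nuclei, against 14.3% ± 4.87 of Ros1 and Rfx2 gate nuclei. Nrp2 ran the other way, at 12.9 ± 6.35 CPM in Sim1-gate nuclei and 34.5 ± 5.35 CPM in Ros1 and Rfx2 gate nuclei, but did not pass (log2 fold change -1.42, edgeR adjusted p = 0.12).

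Neuropilins act with plexins in the same membrane, so joint detection was counted in nuclei thinned to 5000 UMIs. The share of nuclei with a UMI of both genes was set against the product of the shares of each, which is what detection in unrelated nuclei would give. In cortical nuclei Nrp1 and Plxna4 were found together in 52.0% ± 3.24 and Nrp1 and Plxna2 in 42.6% ± 4.15 of nuclei (SD, n = 3). The ratio to the product was 1.00 ± 0.02 and 1.03 ± 0.02, close to what the shares alone give. Of the cortical nuclei with an Nrp1 UMI, 93.6%, 91.7% and 89.4% in replicates 1, 2 and 3 also had a UMI of at least 1 plexin A gene. Plxna4 alone was found in 76.6% ± 3.25 of all thinned cortical nuclei. The share in nuclei without an Nrp1 UMI was not counted, so no link with Nrp1 can be read from this.

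In hindbrain nuclei the commonest pairing was Nrp2 with Plxna4, in 20.3% ± 0.917 of nuclei, at 1.00 ± 0.01 times the product. Nrp1 with Plxna4 followed in 13.1% ± 1.85 of nuclei (ratio 1.00 ± 0.01), and Nrp1 with Plxna2 was found in 6.39% ± 1.34. Nrp2 with Plxna2 was found in 6.24% ± 0.685 (ratio 0.878 ± 0.0838) and Nrp2 with Plxna3 in 1.62% ± 0.496 (ratio 0.92 ± 0.169). Of hindbrain nuclei with an Nrp2 UMI, 86.3%, 88.6% and 80.2% had a plexin A UMI. Plxna4 alone was found in 77.2% ± 2.45 of all thinned hindbrain nuclei, and nuclei without an Nrp2 UMI were not counted for this. In red nucleus and hypothalamic nuclei only 45 and 9 thinned nuclei had an Nrp2 UMI, too few for ratios to be read.

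Nrp1 and Nrp2 were found together in hindbrain nuclei less often than their shares would give, in 78 nuclei where the product gives 109.5. The ratio was 0.65, 0.701 and 0.767 in replicates 1, 2 and 3, below 1 in all of them. Nrp1 and Plxna2 were found together more often, at 1.38 ± 0.03 times the product. So were Nrp1 and Plxna1, at 1.48 ± 0.31 times the product (1.645, 1.118 and 1.676 in replicates 1, 2 and 3). Nuclei with at least 2 Nrp1 UMIs stood apart in other genes, though they numbered only 39, 20 and 43 of 698, 732 and 1040 nuclei. They averaged 1.77, 1.30 and 2.19 Nfib UMIs per 5000 in replicates 1, 2 and 3, against 0.343, 0.419 and 0.257 in nuclei with no Nrp1 UMI, and 0.103, 0.25 and 0.349 Slc17a6 UMIs, against 0.533, 0.473 and 0.607. Nuclei with at least 2 Nrp2 UMIs, which numbered 45, 45 and 86, had 0.2, 0.222 and 0.186 Nfib UMIs, against 0.662, 0.660 and 0.454 in those with none.

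The joint detection of these genes was counted again in hindbrain nuclei with no UMI of the 5 cortical markers, a selection made after seeing the data. Such nuclei numbered 1550 of 2470. The ratio of Nrp1 with Nrp2 was 0.834, 1.27 and 1.04 in replicates 1, 2 and 3 in them, a mean of 1.05 ± 0.22, against 0.706 ± 0.0588 in all hindbrain nuclei. It was below 1 only in replicate 1. The ratio of Nrp1 with Plxna2 was 1.02, 1.61 and 0.982, a mean of 1.2 ± 0.35, against 1.38 ± 0.03 in all hindbrain nuclei. In replicate 2 it was higher than in all nuclei. That of Nrp1 with Plxna1 was 0.971, 1.02 and 0.943, a mean of 0.978 ± 0.039, against 1.48 ± 0.31 in all hindbrain nuclei. An Nrp1 UMI was found in 13.4%, 12.3% and 11.3% of these nuclei, against 32.7%, 20.1% and 24.0% of the 920 with a cortical marker UMI. The first shares overlap with those of red nucleus nuclei without such a UMI (11%, 4.44% and 13.2%) and of hypothalamic nuclei without one (6.45%, 15.8% and 9.38%). The share with an Nrp2 UMI was 28.4% ± 0.629 in hindbrain nuclei without a cortical marker UMI and 22.8% ± 3.23 in those with one.

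**Figure D4:**
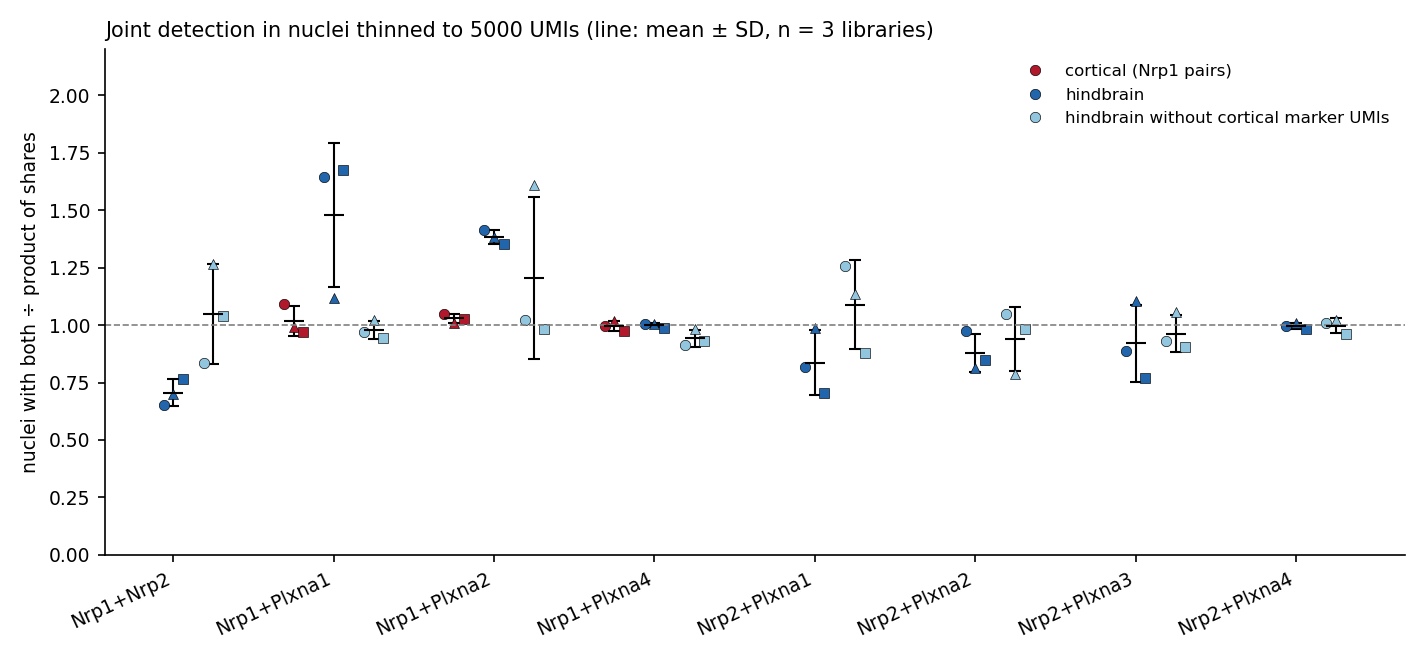
Nuclei with a UMI of both genes, divided by the product of the shares of each (vertical axis; the dashed line at 1 marks equality), in nuclei thinned to 5000 UMIs; symbols are libraries and lines the mean ± SD of 3. The hindbrain ratio of Nrp1 with Nrp2 lies below 1 in all libraries, and at 1.05 ± 0.22 in hindbrain nuclei without a cortical marker UMI.

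Semaphorin genes were also counted in these types. Of 7 class 3 semaphorin genes 5 were tested, and in cortical minus hindbrain nuclei 1 was called higher and 3 lower, where 21.4% of all tested genes were called either way, with a median log2 fold change of -1.91 beside -0.05 over all genes. Against hypothalamic nuclei 1 was higher and 3 lower (22% of all tested genes either way). Against red nucleus nuclei none was higher and 2 were lower (21.8% of all tested genes either way). Sema3a, the ligand of Nrp1, stood at 7.68 ± 1.58 CPM in cortical, 9.01 ± 6.41 in red nucleus, 29.6 ± 11.1 in hypothalamic and 40.9 ± 9.14 in hindbrain nuclei, a log2 fold change of -2.40 for cortical minus hindbrain (SE 0.15, edgeR adjusted p = 3.5e-10). Sema3f, the ligand of Nrp2, was low everywhere and at 0.294 ± 0.107 CPM in cortical and 2.87 ± 0.417 CPM in hindbrain nuclei (log2 fold change -3.11, SE 0.36, edgeR adjusted p = 1.1e-06). Sema3e, the ligand of plexin D1, was called higher in cortical nuclei, at 112.5 ± 34.8 CPM, against 29.98 ± 11.5 CPM in hindbrain nuclei (log2 fold change 1.92, SE 0.14, edgeR adjusted p = 2.4e-09). Sema3d was lower in cortical than in hypothalamic nuclei, at 2.40 ± 0.742 and 14.4 ± 6.06 CPM (log2 fold change -2.59, edgeR adjusted p = 0.00016), and Sema3c lower in red nucleus than in hindbrain nuclei, at 43.6 ± 4.13 and 117 ± 4.65 CPM (log2 fold change -1.42, edgeR adjusted p = 2.0e-05).

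Of 13 membrane-bound semaphorin genes 12 were tested, and in cortical minus hindbrain nuclei 1 was called higher and 4 lower (median log2 fold change -0.38), beside 21.4% of all tested genes. The counts were 2 higher and 4 lower both against red nucleus and against hypothalamic nuclei, beside 21.8% and 22% of all tested genes. Sema5a, which binds plexin A1 and A3 in the mouse retina, stood at 11.7 ± 5.55 CPM in cortical, 164 ± 21.9 in red nucleus, 122.5 ± 30.4 in hypothalamic and 205 ± 43.5 in hindbrain nuclei (log2 fold change for cortical minus hindbrain -4.24, SE 0.17, edgeR adjusted p = 7.0e-13). Its relative Sema5b had 3.34 ± 0.33 CPM in cortical and 39.3 ± 1.63 CPM in hindbrain nuclei (-3.56, edgeR adjusted p = 6.8e-13), and Sema4g 1.71 ± 0.289 and 18.9 ± 5.17 CPM (-3.56, edgeR adjusted p = 5.2e-10). Sema7a, the ligand of plexin C1, stood at 35.1 ± 2.64 CPM in cortical, 15.3 ± 4.03 in red nucleus, 3.07 ± 1.90 in hypothalamic (5 UMIs in all) and 11.7 ± 3.12 CPM in hindbrain nuclei, a log2 fold change of 3.54 for cortical minus hypothalamic (SE 0.40, edgeR adjusted p = 1.5e-06). Sema6a, a ligand of plexin A2 and A4, was lower in red nucleus than in hypothalamic nuclei, at 30.4 ± 9.51 and 69.5 ± 16.1 CPM (-1.26, edgeR adjusted p = 0.0011).

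Among 15 other ligands and co-receptors, 11 were tested. In cortical minus hindbrain nuclei 3 were called higher and 1 lower (median log2 fold change -0.01), beside 21.4% of all tested genes. Against hypothalamic nuclei 3 were higher and 3 lower, beside 22% of all tested genes. Against red nucleus nuclei 1 was higher and 1 lower, beside 21.8%. Nrcam, a cell adhesion protein that joins neuropilin complexes, stood at 1045 ± 39.1 CPM in cortical, 453.5 ± 52.7 in red nucleus, 292 ± 44.6 in hypothalamic and 405 ± 24.1 CPM in hindbrain nuclei (cortical minus hindbrain 1.37, edgeR adjusted p = 1.7e-10). Vegfb, a ligand of the receptor Flt1 and of Nrp1, was lower in cortical nuclei, at 8.89 ± 0.632 CPM against 26.0 ± 3.23 CPM in hindbrain nuclei (-1.55, edgeR adjusted p = 2.4e-09), and Vegfc higher, at 11.9 ± 2.45 against 4.5 ± 1.53 CPM (1.44, edgeR adjusted p = 3.5e-05). Met, the receptor of hepatocyte growth factor and a partner of plexin B proteins, had a single UMI in the hypothalamic sums, against 667 in the deeper hindbrain sums. These stood for 0.576 ± 0.998 and 18.2 ± 3.08 CPM (hypothalamic minus hindbrain -4.84, SE 1.07, edgeR adjusted p = 0.0067).

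Of 27 genes that act below plexins in the cytoplasm 24 were tested, and 3 were called higher and 2 lower in cortical minus hindbrain nuclei (median log2 fold change 0.05), a share near the 21.4% of all tested genes. The counts were equal in cortical minus red nucleus nuclei, beside 21.8% of all tested genes. Against hypothalamic nuclei 4 were higher and 2 lower, beside 22% of all tested genes either way. None was called between types outside the cortex, where 4.16% to 6.81% of all tested genes were called in a contrast. Mical2 encodes an actin-oxidising enzyme of a family whose fly member binds plexin A. Its level was 718 ± 25.3 CPM in cortical, 66.8 ± 7.74 in red nucleus, 67.7 ± 16.9 in hypothalamic and 96.9 ± 20.6 CPM in hindbrain nuclei (cortical minus hindbrain 2.91, SE 0.09, edgeR adjusted p = 7.0e-14). Rock2, a kinase, was higher in cortical than in red nucleus nuclei (535 ± 85.3 and 143 ± 30.9 CPM, log2 fold change 1.92, edgeR adjusted p = 5.4e-12). Dpysl3 and Dpysl5, members of the collapsin response mediator family that relays semaphorin signals to microtubules, were lower: 38.0 ± 0.147 CPM in cortical and 114 ± 6.09 CPM in hindbrain nuclei for Dpysl3 (-1.58, edgeR adjusted p = 3.6e-10), and 25.0 ± 0.763 and 92.3 ± 9.25 CPM for Dpysl5 (-1.88, edgeR adjusted p = 2.6e-11).

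The genes whose level was most like that of each receptor over the 12 sums were found by Pearson's r of log2 CPM among 7035 tested genes with a mean of at least 20 CPM. The points share libraries and types, so the values are descriptions. Nrp1 was most like Baiap2 (r = 0.989), which stood at 257 CPM in cortical, 52.7 in red nucleus, 58.7 in hypothalamic and 71.4 CPM in hindbrain nuclei on average, and then Unc79 (r = 0.987). Nrp2 was most like Glra1, a glycine receptor subunit (r = 0.982), at 12 CPM in cortical, 101 in red nucleus, 81.8 in hypothalamic and 183 CPM in hindbrain nuclei, and Zfp521 (r = 0.981). Plxna3 was closest to Ankfn1 (r = 0.978). Plxnc1 was closest to Nnat (r = 0.957), an imprinted gene, which stood at 863 CPM in hypothalamic nuclei and at 32.6 to 56.8 CPM in the other types. Plxna4, the least variable receptor, had no neighbour above Zmat4 (r = 0.888). Among the receptors themselves, Nrp1 and Plxna2 had r = 0.937 over the 12 sums. Plxna3 and Plxnb2 had r = 0.818, Nrp2 and Plxnb2 r = 0.79 and Nrp2 and Plxna3 r = 0.712, while Nrp2 and Plxna2 ran opposite with r = -0.949.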

How the data were processed

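Single-nucleus RNA was sequenced in 3 libraries. Each deposited file holds whole UMI counts by gene and barcode. The authors obtained them with Cell Ranger, version 6.1.1 per the file headers and 7.0.1 per the submitters' processing notes, which also give the build mm10; the version behind the counts could not be settled. Whether introns or strand were used in counting is not given in the sources used here; without introns, long unspliced genes would read lower.

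The 10 genes, the gates, the gene lists and the tests were chosen with earlier results of these data known. Named genes were all members, up to 3 called genes of each list per contrast with the largest change (those of the cortical contrasts and some others are given), and the genes with the highest r, given for Nrp1, Nrp2, Plxna3, Plxna4 and Plxnc1; those of the other members are not reported here. CPM were computed here from the deposited counts. UMIs were summed per library and type and fitted with edgeR 4.0.16 (R 4.3.3): TMM, filterByExpr, library block, 6 residual degrees of freedom, biological coefficient of variation 0.0867. SE is the log2 fold change over the square root of F. The fit was tested on simulated data. Doublets were marked with Scrublet (Scanpy 1.11.5, expected rate 6%), which marked 0.56%, 2.13% and 1.45% of nuclei; they were kept in the main values and left out in an alternative. Types of 1 library come from the same preparation: deviations of same-library sums from their type means correlated at 0.0908 to 0.628 over genes, above 0.1 in 17 of 18 pairs of sums. log2 CPM used a pseudocount of 0.5. Promoters came from RefSeq. Other settings included DESeq2 1.42.0, other gates, 3000 and 10000 UMIs for thinning, and each replicate left out.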

Additional observations from a re-analysis of the deposited data

How the results depend on the processing

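Members called in the 3 cortical contrasts stayed within 1.5 times of 4, 4 and 5 under every setting: 3 to 5 against red nucleus, 4 to 6 against hypothalamic and 5 against hindbrain nuclei. Between other types they did not. Red nucleus minus hypothalamic gave 2 members, 1 with gates at 1.5 times and 1 after thinning to 5000 UMIs, and 0 to 2 with a replicate left out; over all genes thinning gave 730 calls against 1102. Red nucleus minus hindbrain gave 2 members, Nrp1 and Plxna3, and 1 after thinning, which was Nrp2 in their place, with 1 to 2 when a replicate was left out. Hypothalamic minus hindbrain gave 1 member, and 2 after thinning or with library size only, with 1 to 2 when a replicate was left out. The Sim1 gate minus the Ros1 and Rfx2 gate gave 0 members and 347 genes after thinning, against 1 and 546. Thinning also leaves out shallow nuclei and most UMIs.

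Without the replicate block, members called were 4, 4, 5, 2, 2, 1 and 1 in the 7 contrasts, as with it; over all genes red nucleus minus hindbrain gave 419 calls against 677, and the other counts stayed within 1.5 times.

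The log2 ratio of Nrp1 to Nrp2 in cortical sums was 7.38 with nuclei of 1 gate only, 7.24 without doublets and 7.16 with gates at 1.5 times, and 0.65 in hypothalamic sums with gates at 1.5 times; causes were not tested.

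Log2 fold changes that changed sign were all uncalled. With library size only they were Plxnc1 in cortical minus red nucleus (-0.23), Plxna4 in cortical minus hypothalamic (-0.48) and minus hindbrain (-0.044), and Plxna1 in cortical minus hindbrain (-0.029). Plxna4 in cortical minus hypothalamic was also -0.12 with nuclei of 1 gate only and -0.0087 after thinning. In red nucleus minus hypothalamic, Nrp1 was -0.71 to 0.19 with a replicate left out and 0.0795 after thinning. In red nucleus minus hindbrain, Plxna1 was -0.0998 to 0.0208 with a replicate left out and 0.14 with gates at 1.5 times, and Plxna2 was 0.0070 with DESeq2 size factors, 0.0071 with the DESeq2 test and -0.20 to 0.16 with a replicate left out. In hypothalamic minus hindbrain, Plxna3 was -0.29 to 0.50 with a replicate left out, -0.077 with gates at 1.5 times and -0.032 after thinning, and Plxnb2 0.28 after thinning. Between the Sim1 gate and the Ros1 and Rfx2 gate, Nrp1 was -1.04 to 0.24 with a replicate left out and 0.39 with gates at 1.5 times, Plxna2 -0.49 to 0.31 with a replicate left out and 0.037 without doublets, and Plxnb2 -0.83 to 1.98 with a replicate left out. Depth limits hypothalamic values most, since 3 UMIs there stand for 2.13 CPM, against 0.0305 CPM in cortical sums.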
